A study of Mus musculus with 3 samples.

Results

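Toll-like receptors are membrane sensors of microbial lipids, proteins and nucleic acids, and CD14 is the surface protein that hands lipopolysaccharide to 1 of them, TLR4. This account covers the 10 genes Cd14, Tlr1, Tlr2, Tlr3, Tlr4, Tlr6, Tlr7, Tlr8, Tlr9 and Tlr13 in 3 cell populations of the mouse spleen. The members were every probe set that the platform annotation assigns to 1 of these symbols alone, which gave 16 probe sets for 10 of the 18193 genes on the array. Tlr4 had 4 probe sets, Tlr7 had 3, Tlr3 had 2, and the other 7 members had 1 each.

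The populations were monocytes without Spic (Spic-negative), monocytes with Spic (Spic-positive) and red pulp macrophages, with 1 Affymetrix expression array for each. All 3 came from adult mice of the genotype Spic(igfp/+), in which the green fluorescence of 1 modified allele reports Spic, an Ets transcription factor of red pulp macrophages. Both monocyte populations were sorted as CD11b+ Ly6C+ cells after removal of CD4, CD8 and B220 positive cells and differed in fluorescence, whereas the macrophages were sorted as high for the antigen that Adgre1 encodes and high for fluorescence. No agent was given according to the labels, the number of mice pooled for an array and their sex are not given there, and a wild-type Spic genotype is not among the groups. With 1 array for each population the spread between animals is unknown and no test was run, so every difference below describes these arrays. The study's title concerns how heme steers monocytes to become macrophages that recycle iron.

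Values are log2 expression from RMA, an array summary in which 1 unit is a 2-fold step. The median over all probe sets and arrays, log2 5.02, served as a floor, since lower levels are near background. All 10 members passed it on at least 1 array, and 14 of the 16 member probe sets did. Of all genes, 12375 passed it and form the background for the members. The SD of the difference among probe sets of the same gene, over 5509 genes with several probe sets above the floor, was log2 0.48 between the 2 monocyte arrays, 0.78 between the macrophage and Spic-negative arrays and 0.85 between the macrophage and Spic-positive arrays. This is a yardstick for probe set error and not for variation between animals. In bulk RNA of sorted cells, fewer cells of a type and less RNA per cell cannot be told apart.

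As background, the family falls into receptors of the cell surface and receptors of the endosome. TLR2 pairs with TLR1 or TLR6 to sense bacterial lipopeptides, and TLR4 senses lipopolysaccharide together with MD-2 (Ly96) and CD14. TLR3 senses double-stranded RNA, TLR7 and its close relative TLR8 belong to the receptors for RNA fragments, TLR9 senses DNA rich in unmethylated CpG, and mouse TLR13 senses bacterial ribosomal RNA. All but TLR3 signal through the adaptor MyD88, while TLR3 and internalised TLR4 use TRIF (Ticam1). Red pulp macrophages clear aged red blood cells and lie in contact with blood, where such ligands arrive.

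Tlr1 and Tlr6 are next to each other among the protein-coding genes of chromosome 5, and their levels differed in opposite directions between the monocyte arrays. Their promoters are therefore shown first, together with that of Tlr3, whose level set the macrophage array apart from both monocyte arrays. Sequences are from RefSeq on GRCm38.p6, from 250 bases before to 50 bases after a transcript start, and the table held 9 such windows for 7 of the 10 members: Tlr1, Tlr2, Tlr3, Tlr6, Tlr8, Tlr9 and Tlr13. Capitals mark matches on either strand to the GAGGAA core bound by PU.1, an Ets factor related to Spic. They also mark matches on either strand to AANNGAAA, the letters bound by interferon regulatory factors (IRF). Matches to the NF-kB consensus are marked too, but it was searched on the strand of the gene only. The windows were also searched for TGANTCA (AP-1) and TGACGTCA (CRE).
Tlr1, upstream start, chr5:64933509-64933808, minus strand: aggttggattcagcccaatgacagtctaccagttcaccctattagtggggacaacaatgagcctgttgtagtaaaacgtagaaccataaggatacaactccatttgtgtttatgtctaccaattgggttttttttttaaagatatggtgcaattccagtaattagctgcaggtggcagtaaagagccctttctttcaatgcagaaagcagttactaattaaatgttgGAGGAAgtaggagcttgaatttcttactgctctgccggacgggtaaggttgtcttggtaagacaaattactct
Tlr1, downstream start, chr5:64932650-64932949, minus strand: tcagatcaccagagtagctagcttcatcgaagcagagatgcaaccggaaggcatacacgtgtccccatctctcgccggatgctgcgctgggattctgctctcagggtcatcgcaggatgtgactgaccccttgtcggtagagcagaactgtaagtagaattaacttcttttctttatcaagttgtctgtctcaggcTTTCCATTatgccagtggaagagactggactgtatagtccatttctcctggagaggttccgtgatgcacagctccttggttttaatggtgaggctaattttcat
Tlr6, upstream start, chr5:64959999-64960298, minus strand: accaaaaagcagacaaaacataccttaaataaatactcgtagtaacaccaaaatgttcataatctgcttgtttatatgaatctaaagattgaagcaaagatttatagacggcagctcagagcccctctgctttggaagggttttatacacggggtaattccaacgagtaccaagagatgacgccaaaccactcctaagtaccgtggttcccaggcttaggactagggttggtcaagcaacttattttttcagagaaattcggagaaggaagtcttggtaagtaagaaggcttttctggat
Tlr6, downstream start, chr5:64959117-64959416, minus strand: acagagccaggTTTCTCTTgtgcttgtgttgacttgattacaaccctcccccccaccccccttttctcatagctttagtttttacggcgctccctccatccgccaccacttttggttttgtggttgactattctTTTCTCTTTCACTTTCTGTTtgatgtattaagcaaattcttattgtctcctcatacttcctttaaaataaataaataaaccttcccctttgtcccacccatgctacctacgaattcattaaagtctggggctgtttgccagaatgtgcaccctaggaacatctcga
Tlr3, chr8:45410331-45410630, minus strand: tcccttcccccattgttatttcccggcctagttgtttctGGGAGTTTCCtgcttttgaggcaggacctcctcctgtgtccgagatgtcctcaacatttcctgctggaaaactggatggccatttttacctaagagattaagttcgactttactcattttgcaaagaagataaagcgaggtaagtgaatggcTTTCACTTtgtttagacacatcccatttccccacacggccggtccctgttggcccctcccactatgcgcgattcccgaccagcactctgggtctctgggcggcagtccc

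The GAGGAA core lay 23 bases before the upstream start of Tlr1, on the strand of the gene, and in neither Tlr6 window. The downstream Tlr6 window held 4 AANNGAAA matches on the opposite strand, of which those 116, 110 and 104 bases before the start overlap, and the downstream Tlr1 window held 1. The Tlr3 window held 1 NF-kB match on the strand of the gene, 211 bases before the start, and 1 AANNGAAA match. Over all members the GAGGAA core was found in 4 of 9 windows, those of Tlr1, Tlr8, Tlr9 and Tlr13, against 28.3% of all 32851 windows in the table. AANNGAAA was in 23.9% of all windows and 4 of 9 member windows, and the NF-kB consensus in 5.89% and 2 (Tlr2 and Tlr3). TGANTCA was in 7.81% and 1 (Tlr9), and TGACGTCA in 1.79% and none. The NF-kB shares come from the strand of the gene alone, and the other shares from both strands. These matches are letters in a window and not measured binding sites.

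Among the surface receptors, the array levels of Cd14 and Tlr2 differed little between the populations, Tlr1 was highest in Spic-positive monocytes, Tlr6 was lowest there, and Tlr4 was highest in macrophages. Cd14 measured log2 13.26, 12.83 and 13.11 on the Spic-negative, Spic-positive and macrophage arrays. It differed by -0.43 within the monocyte pair, and macrophages stood at -0.16 from the Spic-negative and 0.27 from the Spic-positive level, each within the yardstick of probe set error. All 3 arrays therefore lay within 1.35-fold of each other for this gene. The order of macrophages and Spic-negative monocytes turned to 0.03 after cyclic loess.

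Tlr2, the partner that TLR1 and TLR6 share, measured 11.89, 11.59 and 11.48 in the same order of arrays. The differences of -0.30, -0.41 and -0.11 were also within the yardstick, and the arrays lay within 1.33-fold of each other. After each array was centred on its median the last of these turned to 0.0074, so the order of the Spic-positive and macrophage arrays for Tlr2 is not settled.

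Tlr1, the partner for triacylated lipopeptides, measured 8.01 on the Spic-negative array, 9.77 on the Spic-positive array and 9.15 on the macrophage array. The Spic-positive array was the highest, 3.40-fold above the Spic-negative array (log2 1.77), and only 0.929% of the 12375 genes had a larger difference upwards. The macrophage array was 2.21-fold above the Spic-negative array (log2 1.14), with 16.9% of genes further up, and lay 0.62 below the Spic-positive array, within the yardstick. On these arrays the Tlr1 level was thus 2-fold or more above the Spic-negative level in both populations with Spic.

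Tlr6, the partner for diacylated lipopeptides, measured 7.95, 6.90 and 8.15. The Spic-positive array was the lowest, with a difference of -1.05 (2.07-fold lower), and 2.47% of genes lay further down. Macrophages stood 0.21 above Spic-negative monocytes, within the yardstick, and 1.26 above Spic-positive monocytes (2.39-fold), where 16.6% of genes lay further up. The difference between the monocyte arrays was just past 2-fold and fell inside it, at -0.90 and -0.88, after quantile normalization was repeated and after cyclic loess. The macrophage difference from Spic-positive monocytes was 0.99 after the repeated quantile normalization.

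Tlr4, the lipopolysaccharide receptor, measured 6.34, 5.84 and 9.13 on its brightest probe set, with macrophages last. Macrophages were 6.92-fold above Spic-negative monocytes (log2 2.79, with 3.88% of genes further up) and 9.80-fold above Spic-positive monocytes (3.29, with 1.97% further up). A second probe set, made from the same transcript accession, measured 6.89, 4.50 and 8.57, and the next 3.84, 3.70 and 5.61. The second placed macrophages 1.67 above Spic-negative monocytes and, since its Spic-positive level was below the floor, at least 11.7-fold above that level, counted from the floor. The next had both monocyte levels below the floor and a macrophage level 0.59 above the floor on the log2 scale, so it does not by itself show a 2-fold difference. The fourth probe set lay below the floor on every array, at 2.98, 2.94 and 2.70.

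Between the monocyte arrays the Tlr4 probe sets did not give 1 size. The brightest one differed by -0.50 and the second by -2.39, which took its Spic-positive level below the floor. The next was below the floor on both arrays, and differed by -0.14. Control probe sets for the ends of Gapdh, which read out how complete the labelled RNA is, had a 3' minus 5' difference of 0.48, 2.25 and 1.61 on the Spic-negative, Spic-positive and macrophage arrays, while for beta-actin it was 0.74, 0.57 and 1.13. The part of this in the spread of the Tlr4 probe sets was not tested.

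**Figure D1:**
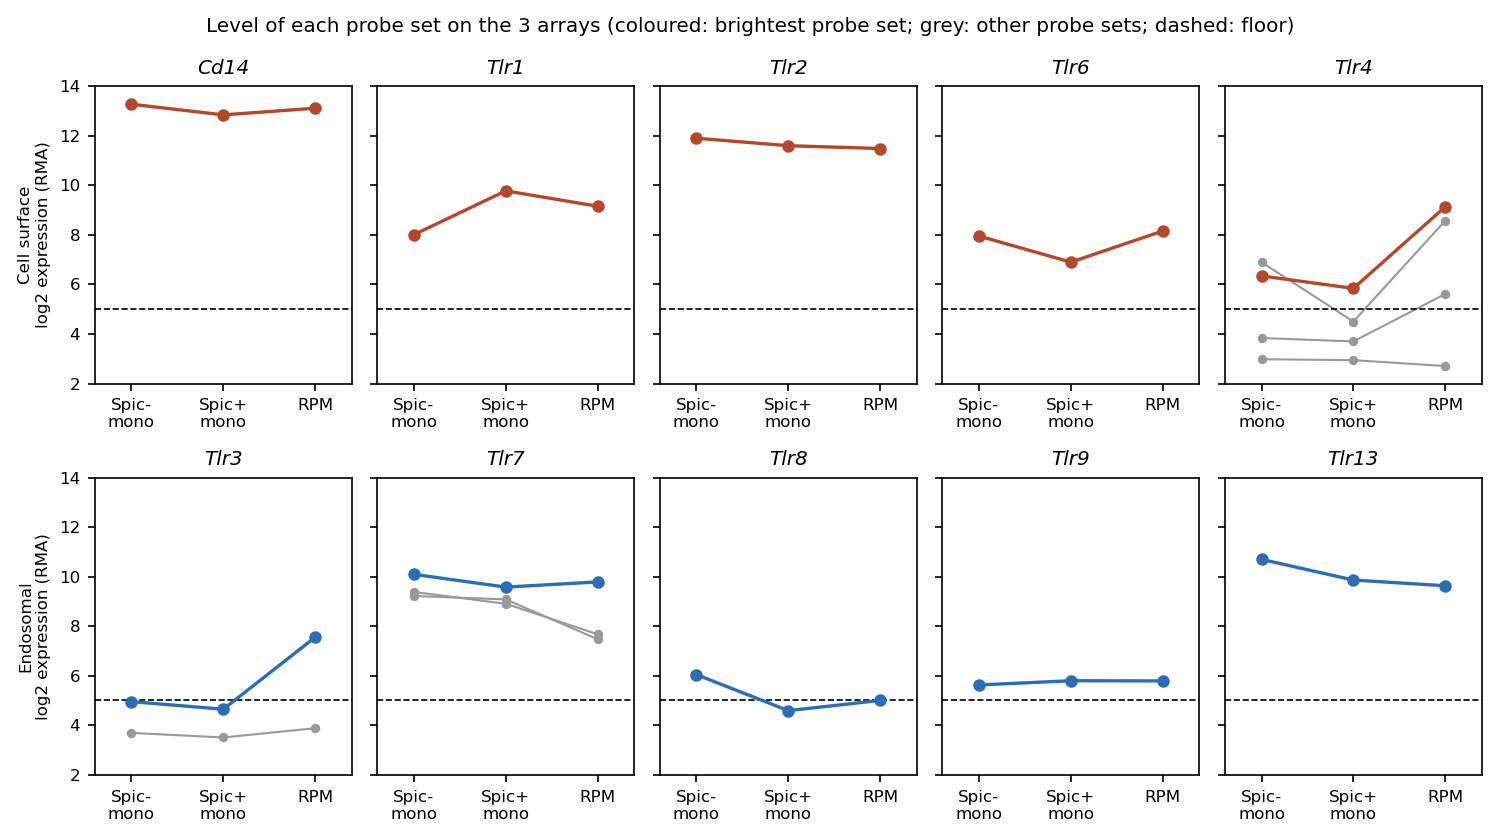
Log2 expression (RMA) of each of the 16 member probe sets on the 3 arrays, with surface members in the upper row and endosomal members in the lower row; coloured lines are each gene's brightest probe set, grey lines are its other probe sets, and the dashed line is the floor at 5.02. Tlr1 is highest and Tlr6 lowest on the Spic-positive array, Tlr4 and Tlr3 are highest on the macrophage array, and 2 of the 3 Tlr7 probe sets drop on the macrophage array.

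Among the endosomal receptors, Tlr3 was detected above the floor only in macrophages, Tlr8 only in Spic-negative monocytes, Tlr13 was highest in Spic-negative monocytes, and Tlr9 stayed within 1.13-fold across the arrays. Tlr3 measured 4.96, 4.65 and 7.56 on its brighter probe set, with macrophages last. Both monocyte levels were below the floor, so the macrophage level was at least 5.80-fold higher than either, counted from the floor. The measured differences of 2.60 and 2.90 depend on the background in monocytes.

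The second Tlr3 probe set did not show this. It measured 3.70, 3.51 and 3.89, below the floor on every array, with a macrophage difference of 0.19 from Spic-negative and 0.37 from Spic-positive monocytes. The brighter probe set carries the suffix _s_at, given where probes may bind more than 1 transcript, and without probe sets of this kind Tlr3 passed the floor on no array. The Tlr3 difference therefore rests on 1 probe set.

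Tlr7 measured 10.09, 9.58 and 9.79 on its brightest probe set, with differences of -0.52, -0.30 and 0.21 that were all under 2-fold. The other probe sets, both designed on the same expressed sequence tag, measured 9.22, 9.08 and 7.48 and 9.38, 8.91 and 7.68. On these the macrophages were lower than Spic-negative monocytes by log2 differences of -1.75 and -1.71, and lower than Spic-positive monocytes by -1.61 and -1.23. All 3 probe sets were well above the floor on every array, so whether Tlr7 was lower in macrophages depended on the probe set.

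Tlr8 measured 6.05 in monocytes without Spic, 4.60 in those with it and 5.01 in macrophages. The Spic-negative array alone lay above the floor and was at least 2.04-fold higher than each of the others, counted from the floor. The measured difference between the monocyte arrays was -1.45, a size that depends on the background in Spic-positive cells. The macrophage level was so close to the floor that its place above or below it has no weight, and its difference of -1.04 from Spic-negative monocytes came inside 2-fold, to -0.99, -0.99 and -0.89, after centring, repeated quantile normalization and cyclic loess.

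Tlr9 measured 5.63, 5.80 and 5.79, not far above the floor on all 3 arrays. Its differences of 0.17, 0.16 and -0.01 were within the yardstick. Tlr13, the sensor of bacterial ribosomal RNA, measured 10.70 in monocytes without Spic, 9.86 in those with it and 9.63 in macrophages. The Spic-positive array differed from the Spic-negative array by -0.83, under 2-fold but with only 5.33% of genes further down, and the macrophage array by -1.06 (2.09-fold lower), with 10.2% further down. The second of these was -0.99 after cyclic loess. Spic-positive monocytes and macrophages differed by -0.23, within the yardstick.

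Tlr7, Tlr8 and Tlr13 are the 3 members on the X chromosome, where Tlr8 and Tlr7 are next to each other. Xist, which coats the inactive X chromosome, measured 4.63, 4.70 and 11.95 on the Spic-negative, Spic-positive and macrophage arrays, and the Y-linked gene Eif2s3y measured 10.10, 9.56 and 3.31. The 2 monocyte arrays were thus alike in these sex-linked transcripts, and the macrophage array differed from both. In every comparison with macrophages, sex and population can therefore not be told apart, for any of the 10 members. The median difference of the 341 X-linked genes above the floor was 0.05 for macrophages against Spic-negative monocytes. For the 2 monocyte arrays it was -0.17, against -0.06 for all genes, and the 3 X-linked members were lower there too. The part of sex in the macrophage differences was not tested, for these members or the others.

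Counted together, 1 of 10 members was at least 2-fold higher (Tlr1) and 2 were at least 2-fold lower (Tlr6 and Tlr8) on the Spic-positive array relative to the Spic-negative one, where 3.49% of the 12375 genes were higher and 3.06% lower by that measure. The median difference of the members was -0.47, against -0.06 over all genes above the floor. In macrophages against Spic-negative monocytes, 3 members were higher (Tlr1, Tlr3 and Tlr4) and 2 lower (Tlr8 and Tlr13), beside 19.6% and 11.3% of all genes. The median was 0.00 for the members and 0.03 for all genes. In macrophages against Spic-positive monocytes, 3 members were higher (Tlr3, Tlr4 and Tlr6) and none lower, beside 22.0% and 11.6% of all genes, with medians of 0.24 and 0.10. In both comparisons with macrophages the members' shares are near those of all genes, so these counts are no result about the family. The 3 comparisons share arrays and are not independent of each other, and without replicates the counts have no test.

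**Figure D2:**
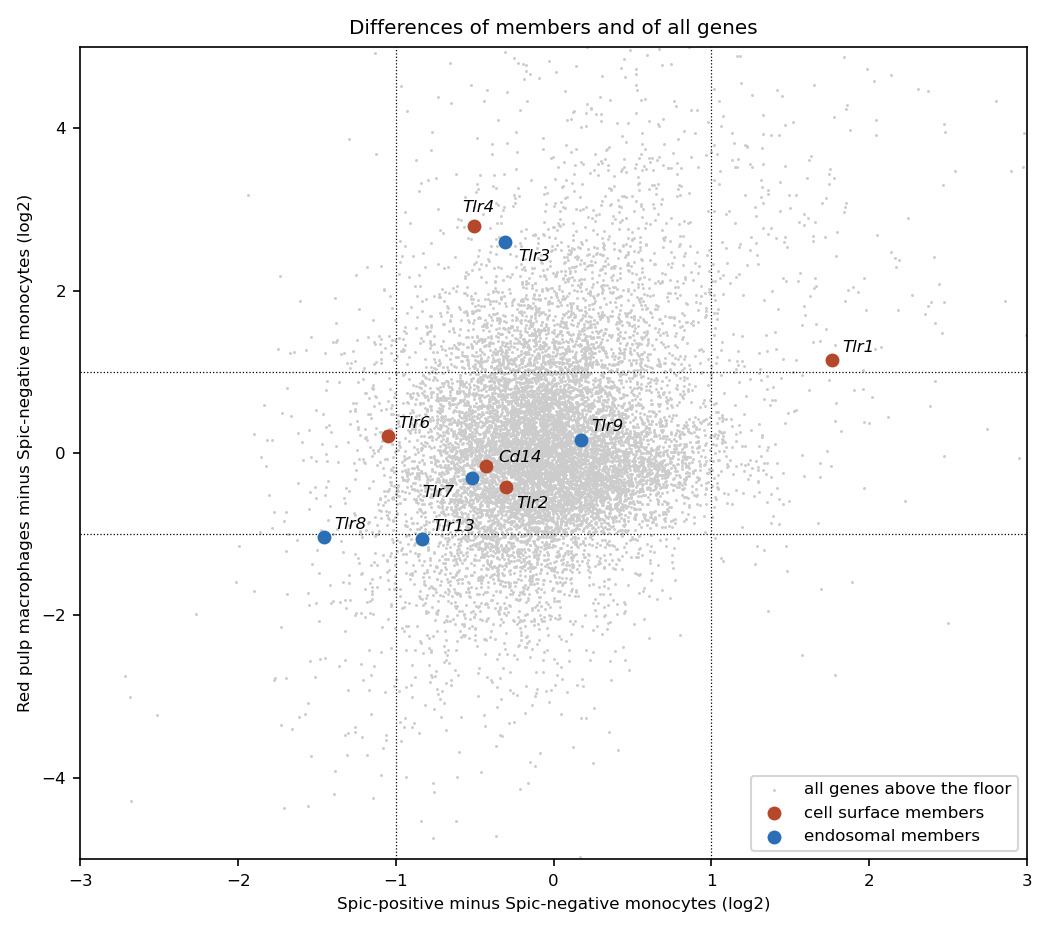
Log2 difference of Spic-positive from Spic-negative monocytes (horizontal axis) against that of red pulp macrophages from Spic-negative monocytes (vertical axis) for the 12375 genes above the floor (grey) and for surface (red) and endosomal (blue) members, with dotted lines at 2-fold; 121 genes lie outside the axes. Both axes share the Spic-negative array. Tlr1 lies to the right at 1.77, Tlr4 and Tlr3 lie high at 2.79 and 2.60, and Tlr8 lies lowest on the horizontal axis among the members at -1.45.

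The composition of the arrays was read from fixed marker lists, because several receptors are also known in other leukocytes. Markers of B cells, which carry Tlr1, Tlr7 and Tlr9, had Spic-positive levels at least 2-fold above the Spic-negative ones in 10 of 11 genes. This count is as measured on the brightest probe set, beside 3.49% of all genes. The 9 Ighm probe sets above the floor ranged from -2.59 to 1.59 in this comparison. The summed level of the B cell markers was log2 11.75, 13.37 and 14.60 on the Spic-negative, Spic-positive and macrophage arrays. The macrophage sum was mostly Ighm, which alone measured 14.49 there. The median marker stood at 8.08 on the Spic-positive array and 6.61 on the macrophage array. Between these arrays 4 markers were at least 2-fold lower in macrophages (Ms4a1, Ebf1, Blk and Cr2) and 1 was higher (Ighm). Cd79a, Pax5, Ebf1, Fcer2a and Fcrla did not reach the floor on the Spic-negative array, nor Ebf1 on the macrophage array. Counted from the floor, Ebf1 and Fcer2a, at 5.69 and 5.84 on the Spic-positive array, showed no 2-fold difference. Tlr1 moved with this list between the monocyte arrays, and the part of B cell RNA in the Tlr1 difference was not tested. Tlr9 and Tlr7 differed by 0.17 and -0.52 over the same pair of arrays.

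Conventional dendritic cell markers were at least 2-fold higher as measured in 3 of 7 genes on the Spic-positive array (Zbtb46, Itgax and Ccr7). The share of all genes was 3.49%. Zbtb46 measured 4.11 and 5.35 on the monocyte arrays, so counted from the floor it showed no 2-fold difference. The summed level of these markers was 10.84, 12.05 and 10.88. Xcr1, which marks the dendritic cells best known for Tlr3, lay below the floor on all 3 arrays. On the macrophage array, where Tlr3 was high, Zbtb46, Ccr7 and Itgax were above the Spic-negative level by 2.50, 2.05 and 1.23, Zbtb46 from a level below the floor, and Flt3 and Dpp4 were below it, with -1.24 and -1.77. Plasmacytoid dendritic cell markers, from cells known for Tlr7 and Tlr9, summed to 10.77, 11.06 and 11.22. As measured, 2 of 8 and 3 of 8 were at least 2-fold higher than in Spic-negative monocytes on the Spic-positive and macrophage arrays. The shares of all genes were 3.49% and 19.6%. Ccr9, in both counts, measured 3.75 and 5.22 on the monocyte arrays, so counted from the floor it showed no 2-fold difference between them. Of 7 erythroid markers, 5 passed the floor on the macrophage array and 0 on the Spic-negative array. All 5 exceeded their Spic-negative level by 2-fold or more, beside 19.6% of all genes, with a smallest measured difference of 4.77. Since these markers passed the floor through the macrophage array, this count is partly fixed by the filter. Hba-a1 and Epb42 were below the floor on every array on the probe set used. The other Epb42 probe set passed the floor, with measured macrophage differences of 4.43 from Spic-negative and 3.99 from Spic-positive monocytes. The summed level of the list was 7.03, 7.19 and 13.40. Markers of T and NK cells summed to 7.86, 8.04 and 10.32, with Gzma (9.24) and Nkg7 (8.36) the highest in macrophages. Of 7 such markers, 1 passed the floor in Spic-negative monocytes (Cd3e) and 6 in macrophages, all but Cd8b1. Cd3e itself went the other way, with -0.48 in macrophages against Spic-negative monocytes. Neutrophil markers, from cells that carry Tlr2, Tlr4 and Cd14, summed to 15.01, 15.12 and 14.94, with none of 8 at least 2-fold different between the monocyte arrays. In macrophages against Spic-negative monocytes Mmp8, Csf3r and Cxcr2 were lower, with -3.38, -1.89 and -1.49, Cxcr2 to a level below the floor, and Ltf was higher by 1.46. The part of these cells in the receptor levels was not tested.

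The marker lists of the sorted populations were read as well. All 10 red pulp macrophage markers were at least 2-fold higher in macrophages than on either monocyte array. The shares of all genes were 19.6% against the Spic-negative and 22.0% against the Spic-positive array. In Spic-positive against Spic-negative monocytes 8 of 10 markers were higher, beside 3.49% of all genes. Spic, through its fluorescence, and Adgre1, through its antigen, were used in the sort, and the lists were chosen with earlier results known. These counts are therefore partly fixed in advance and no test of identity. All 6 classical monocyte markers were at least 2-fold lower in macrophages than in Spic-negative monocytes. On their brightest probe sets all 6 were also lower on the Spic-positive than the Spic-negative array, with a median of -0.69. Vcan and Itgam were past 2-fold, beside 3.06% of all genes. The 3 Vcan probe sets above the floor ranged from -1.56 to 0.64 in this comparison, and Itgam encodes the CD11b used in the sort. In that comparison the median difference of the members was -0.47, against -0.06 over all genes above the floor. The part of the shift in monocyte markers in the members' differences was not tested. Spic itself measured 5.66, 9.22 and 12.23. The median difference of the 18 hybridization controls was 2.16 between the monocyte arrays, with the Spic-positive one brighter, while the macrophage and Spic-negative arrays differed by 0.07, and the part of this in the members' differences was not tested.

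Of the proteins that bring ligand to the receptors or bring the receptors to the endosome, 13 genes lay above the floor. Between the monocyte arrays none was higher by 2-fold, and 1 was lower in Spic-positive cells, the integrin gene Itgam (-1.30), which encodes the CD11b used in the sort. Ly96, which encodes the MD-2 subunit of the TLR4 complex, measured 8.69, 9.04 and 9.19, so its macrophage difference was 0.50 where that of Tlr4 was 2.79. Cd180, a TLR4-like receptor that pairs with MD-1 (Ly86), measured 8.73, 8.92 and 7.63 and was lower in macrophages by differences of -1.10 and -1.29, whereas Ly86 differed by -0.44 and -0.42.

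Unc93b1, the escort of the nucleic acid receptors to the endosome, measured 10.52, 10.90 and 11.20, with no difference of 2-fold. The folding chaperones Hsp90b1 and Cnpy3 also stayed under 2-fold on every probe set above the floor, at 0.52 and -0.43 in macrophages against Spic-negative monocytes. Of the endosomal proteases, which cut these receptors into their active form, Lgmn was higher in macrophages than in Spic-negative monocytes by 1.36 and Ctsb by 1.12 on its brightest probe set, with its 5 probe sets from 1.12 to 3.15, while Ctss differed by -0.27. Cd36, a scavenger receptor that acts as a co-receptor of TLR2 with TLR6, measured 7.18, 7.60 and 8.94 and was higher in macrophages by 1.76.

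The 5 adaptors above the floor differed by less than 2-fold between the monocyte arrays, with a median of 0.14. Myd88 measured 10.75, 10.46 and 10.24. Ticam1, which encodes the TRIF adaptor of TLR3 and TLR4, measured 7.54, 7.89 and 6.46 and was lower in macrophages by differences of -1.08 and -1.43, on the array where the levels of Tlr3 and Tlr4 were highest. Its 1 probe set is of the _s_at kind, like the brighter one of Tlr3. Tirap, the bridge from TLR2 and TLR4 to MyD88, differed by -0.48 and -0.13, and Sarm1 stayed under 2-fold as well. The probe sets of Pik3ap1 went both ways in macrophages against Spic-negative monocytes, with -0.26 on the brighter and 1.35 on the other.

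Among 13 kinase and ubiquitin ligase genes none was 2-fold different between the monocyte arrays on its brightest probe set (median -0.02), while other probe sets reached -1.79 for Peli1 and -1.04 for Ikbkb. In macrophages against Spic-negative monocytes 4 were higher and 3 lower, beside 19.6% and 11.3% of all genes, and the median was -0.03 against 0.03 for all genes. Map3k8, the kinase that opens the ERK branch, was higher by 1.49 and Tab3, a partner of the kinase TAK1, by 1.33, each on a single probe set. Ikbkg, the regulatory subunit of the IkB kinase complex, was higher by 1.15, and its 5 probe sets above the floor ranged from 0.11 to 1.51. Ikbkb, the catalytic subunit, measured 11.97, 11.54 and 9.68 and was lower by a difference of -2.29, with 5 probe sets from -3.06 to -0.67.

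For the other 3 genes of this group the probe sets went both ways. Traf6, the ubiquitin ligase downstream of MyD88, differed by 1.19 on its brightest probe set, and its probe sets ranged from -0.12 to 1.19. Map3k7, which encodes TAK1, differed by -1.20 within a range from -1.20 to 0.08, and Peli1 by -1.46 within a range from -2.00 to 0.92. The direction of Traf6 turned to -0.054 with the mean of its probe sets, and that of Peli1 to 0.92 with their median. Against Spic-positive monocytes Ikbke was also lower in macrophages, with -1.10.

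On their brightest probe sets the 10 inhibitors above the floor showed no 2-fold difference between the monocyte arrays (median -0.04), although the 4 probe sets of Cyld ranged from -0.58 to 1.09. Irak3, which encodes the inactive kinase IRAK-M, measured 8.76, 8.52 and 7.56 and was lower in macrophages than in Spic-negative monocytes by a difference of -1.20, with both probe sets between -1.24 and -1.20. Tnfaip3, which encodes the deubiquitinase A20, was higher by 1.06 on its brighter probe set and by 0.32 on the other. Nfkbie was lower in macrophages than in Spic-positive monocytes, with -1.21. Sigirr differed by less than 2-fold in every comparison. Tollip and Nfkbia did so on their brightest probe sets, while in macrophages against Spic-negative monocytes their probe sets ranged from 0.23 to 1.28 and from -0.29 to 1.48.

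Of 8 transcription factor genes, Relb, an NF-kB subunit, was the 1 that passed 2-fold between the monocyte arrays on the brightest probe set, at 8.52, 9.55 and 9.15 (difference 1.03). Irf5, a factor downstream of MyD88, differed by -0.42 on its brightest probe set and by -1.78 on the other. In macrophages Irf8 was higher than in Spic-negative monocytes by 1.06, with 0.56 on its other probe set, and Irf7, the factor for interferon genes downstream of TLR7 and TLR9, measured 10.25, 10.65 and 9.07 (difference -1.18). Rela and Rel differed by less than 2-fold in all 3 comparisons.

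Genes whose transcription the receptors are known to induce went in both directions. Between the monocyte arrays Ccl5 and Cxcl10 were higher, the second at 9.15 and 11.15, and Il6 was lower, with -1.02, while Tnf differed by 0.63 and Il1b by 0.11. In macrophages against Spic-negative monocytes, Tnf was higher by 1.95. Il10 and Ifnb1 were below the floor in Spic-negative monocytes, and counted from it macrophages were at least 46.4-fold higher for Il10 and at least 1.41-fold higher for Ifnb1. Il1b and Ptgs2 were lower, with -1.28 and -2.45. Thus 4 of 9 target genes were at least 2-fold higher as measured, 3 when counted from the floor, and 2 were lower, beside 19.6% and 11.3% of all genes. Against Spic-positive monocytes 3 were higher as measured (Tnf, Il10 and Ifnb1), beside 22.0% of all genes. There 5 were lower (Il1b, Cxcl10, Ccl5, Ptgs2 and Nos2), beside 11.6%, and the median was -1.39. Counted from the floor, Ifnb1 and Nos2 showed no 2-fold difference there.

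Sensors outside the family are given for comparison. In macrophages against Spic-negative monocytes 5 of 10 were at least 2-fold lower and none higher, beside 11.3% and 19.6% of all genes, and their median was -1.10. These were the lectin receptors Clec4e (-3.02) and Clec7a (-1.81), the inflammasome sensors Nlrp3 (-1.58) and Aim2 (-1.30), and the adaptor of cytosolic DNA sensing Sting1 (-1.26). For the 10 members the same comparison gave 3 higher and 2 lower with a median of 0.00. Between the monocyte arrays Aim2 alone passed 2-fold, with 1.06. Of the remaining Toll-like receptors, the flagellin receptor gene Tlr5 measured 5.46, 6.41 and 4.68, so that the Spic-positive level was at least 2.61-fold above the macrophage level, which was below the floor, and Tlr12 measured 5.34, 5.09 and 5.49.

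Some of these pathway differences were close to 2-fold. Under the 6 alternatives that change a gene's value, 3 of 6 pathway genes past 2-fold between the monocyte arrays came inside it at least once, namely Relb, Il6 and Aim2. For macrophages against Spic-negative monocytes 6 of 28 did, namely Traf6, Map3k7, Ikbkg, Peli1, Tnfaip3 and Irf8. Against Spic-positive monocytes 6 of 30 did, among them Ikbkb and Ikbke.

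**Figure D3:**
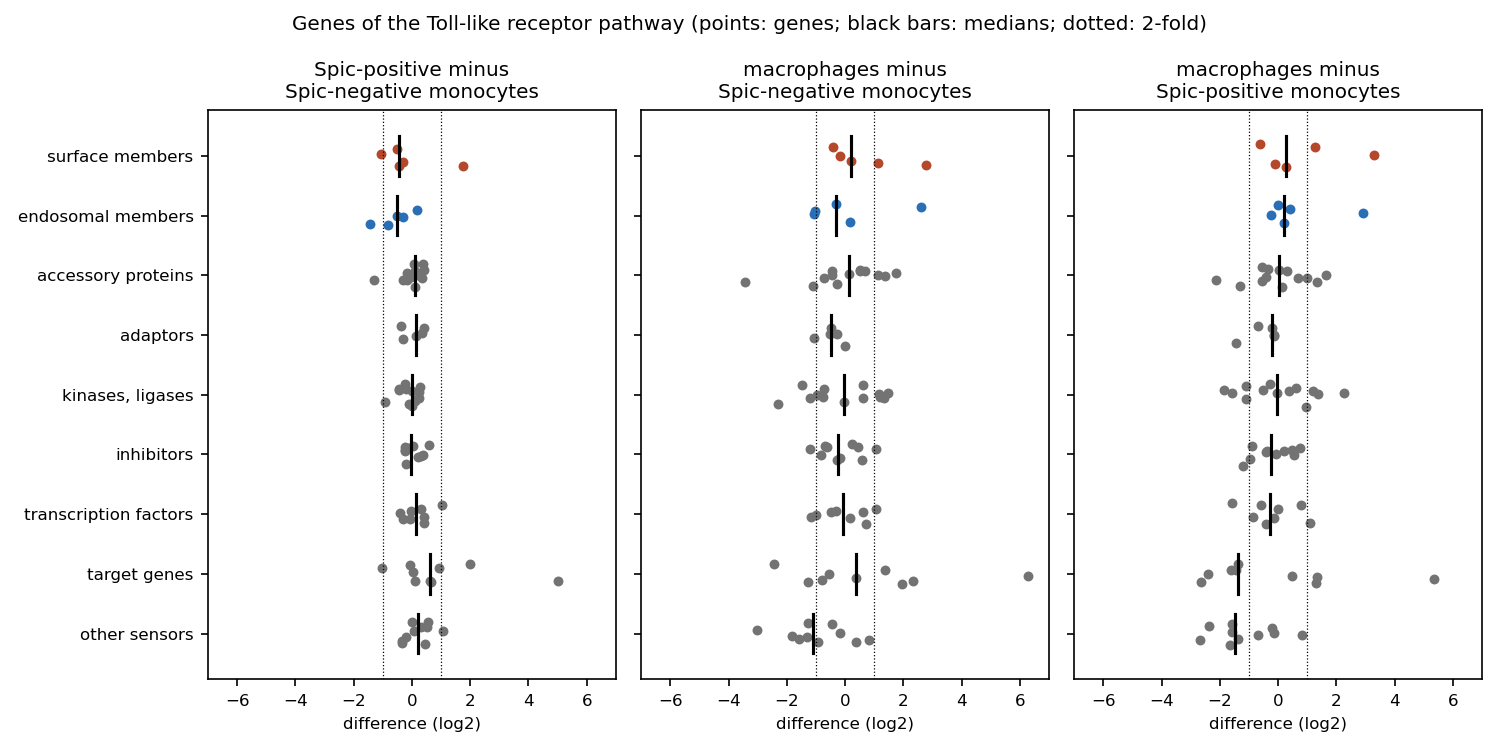
Log2 differences of the genes above the floor in each pathway list for the 3 comparisons, with 1 point per gene, black bars at the list medians and dotted lines at 2-fold. Between the monocyte arrays most points lie inside the dotted lines apart from Tlr1, Tlr6, Tlr8, Itgam, Relb, Il6, Cxcl10, Ccl5 and Aim2, and in macrophages the other sensors have medians of -1.10 and -1.48.

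The likeness of other genes to each member was measured as the distance between their pairs of differences from the Spic-negative array, over 3 arrays. For Tlr1 only 6 genes lay within log2 0.25, and the nearest were Cxcl16 (distance 0.03), AA467197 (0.04) and Stau2 (0.19). For Tlr4 there were 16 such genes, led by 4930526I15Rik (0.07), Sspn (0.10) and Tal1 (0.11), and for Tlr3 there were 29, led by Cxcl3, 4931406C07Rik and Snx25 at 0.07 to 0.08. Tlr8 had 15, with St3gal2 nearest (0.02), followed by Ilkap and Rsl24d1. Tlr6 had 63, with Sc5d nearest (0.01), followed by Rcan3 and Zfp64. Tlr13 had 102, with Slc38a9, Slc35a5 and Cdk19 nearest.

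The members with small differences had many such neighbours. Tlr7 had 477, with Snx2, Cwc25 and Zfx nearest, and Cd14 had 615, with Kif2a, Rps6ka5 and Asnsd1 nearest. Tlr2 had 737, with Tmem161b, C230057M02Rik and Zfp101 nearest, and Tlr9 had 759, with Clec4g, Kpna4 and Dennd1a nearest. A likeness over 3 arrays describes these arrays alone.

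The sizes of the members' differences were recomputed under 6 alternatives that change a gene's value. Tlr1 stayed between 1.69 and 1.94 for Spic-positive against Spic-negative monocytes and between 1.08 and 1.19 for macrophages against Spic-negative monocytes. Tlr4 in macrophages stayed at least 2-fold higher, from 1.49 to 2.84 against Spic-negative and from 2.26 to 3.41 against Spic-positive monocytes, with measured levels under the floor included. The measured Tlr8 difference stayed between -1.57 and -1.45 between the monocyte arrays. Tlr3 ranged from 0.19 to 2.71 and Tlr7 from -1.71 to -0.24 for macrophages against Spic-negative monocytes, which are the members whose probe sets disagreed.

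**Figure D4:**
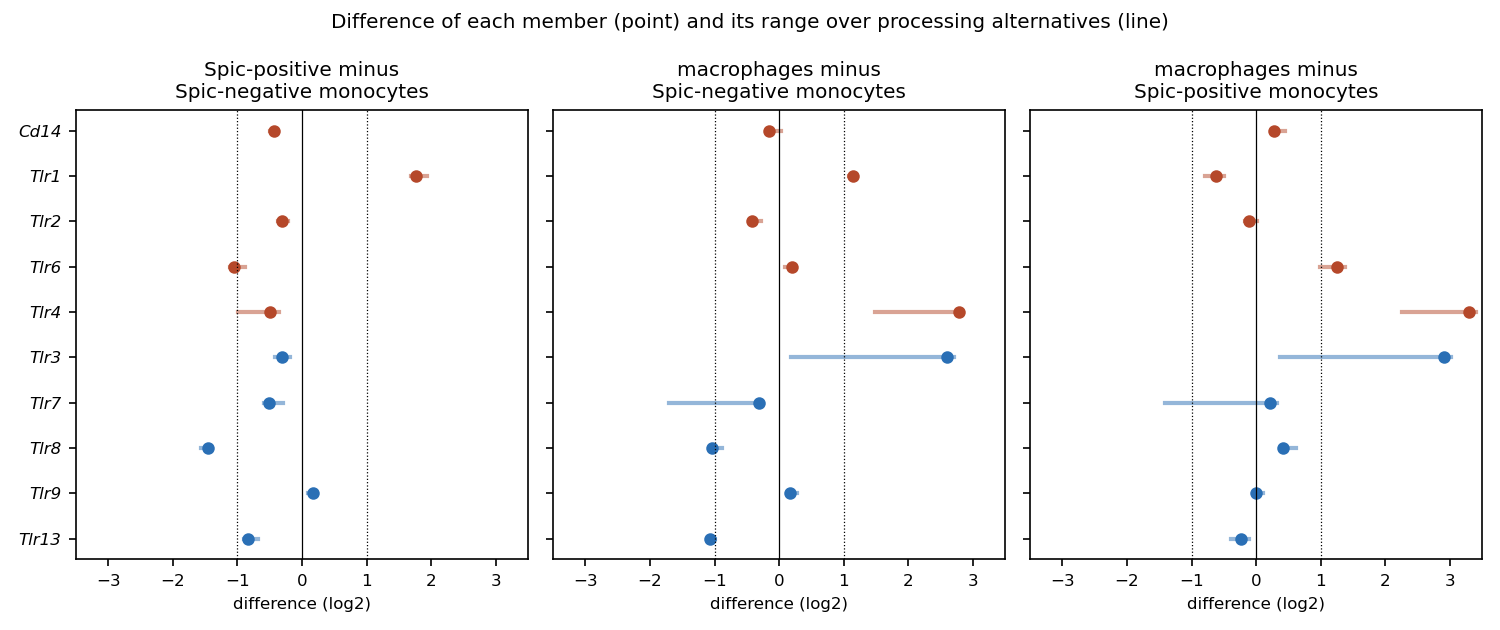
Log2 difference of each member in the 3 comparisons (points) and the range of that difference over the deposited values and 6 processing alternatives (lines), with dotted lines at 2-fold. The lines are short for members with 1 probe set, such as Tlr1 at 1.69 to 1.94, and long for Tlr4, Tlr3 and Tlr7 in the comparisons with macrophages.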

How the data were processed

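RNA of 3 sorted populations was measured on 1 array each. Per the labels' protocols, column-purified total RNA went through 2 amplification cycles to give biotin-labelled cRNA. The authors deposited log2 expression per probe set, made with RMA per the submitters' processing notes. Its version is not given in the sources used, and the log base was taken from the values (1.82 to 14.50). RMA sets the probe intensities of the arrays to a common distribution before they are summarised, so differences in total RNA per cell are not visible. The deposited probe set values still had array medians of 5.01, 5.09 and 4.97 for Spic-negative monocytes, Spic-positive monocytes and macrophages.

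Of 45101 probe sets, 64 controls were left out, 34945 had 1 symbol, 932 had several and 9160 were unnamed. Symbols were updated by gene identifier with a GRCm38.p6 table. A gene took the probe set with the highest mean, and the 12375 genes whose brightest array passed log2 5.02 were compared. A difference counted at 2-fold. No test was run, as each group had 1 array, whose number limits precision. Pathway genes were named from the lists where past 2-fold, and list genes under 2-fold were named for their role after their values were seen; the 3 genes nearest to each member were named by distance. The members and lists were chosen with earlier results of these data known. The counting was tested on simulated data. Other settings were tried for 9 choices, and 2 more were chosen after seeing the data. Python 3.11.15, numpy 2.4.6, pandas 2.3.3, matplotlib 3.10.9, R 4.3.3 and limma 3.58.1 were used.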

Additional observations from a re-analysis of the deposited data

How the results depend on the processing

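The counts of higher members and the median differences kept within 1.5 times or within the probe set yardstick under all alternatives run. The counts of lower members, which rest on differences near 2-fold, did not. In Spic-positive against Spic-negative monocytes the 2 lower members became 1 after quantile normalization again, after cyclic loess, with a floor at the 75th percentile and without genes of the X and Y chromosomes (chosen after seeing the data), and 0 at 3-fold. In macrophages against Spic-negative monocytes the 2 became 1 after centring on array medians, after quantile normalization again and with the 75th percentile floor, and 0 after cyclic loess, at 3-fold and without X and Y genes. In macrophages against Spic-positive monocytes the 0 became 1 (Tlr7) with the median of probe sets. Requiring every probe set above the floor to pass changed no count as measured. Traf6 and Peli1 in macrophages against Spic-negative monocytes turned to -0.054 (mean of probe sets) and 0.92 (median), and Map3k7 and Peli1 against Spic-positive monocytes to 0.11 and 1.02 (median); their probe sets go both ways. The cause of the other changes was not tested. Of all genes past 2-fold between the monocyte arrays 53.3% were higher, 42.4% after centring and 63.0% after cyclic loess, which put the median of all genes at -0.06, -0.13 and 0.04. No paired analysis was possible because each group had 1 array. Signal near the floor limits Tlr3, Tlr8 and Tlr9.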
